A study of Rattus norvegicus with 6 samples.

Results

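The genes described here are 40 genes of cell division, 20 that copy DNA and 20 that carry out mitosis. They were listed by name from their known function, but with earlier results of these data known. A gene counted as measured where at least 1 probe set of the array was annotated with exactly its symbol, and the brightest of its probe sets, averaged over all 6 arrays, then stood for it. By that rule 36 of the 40 were measured, 17 of replication and 19 of mitosis, among 14217 genes in all. Cdc6, Gins2 and Tpx2 had no such probe set and Rrm2 had only 2 that it shares with another gene, so these 4 were not analysed here. No filter on low values was applied. None of the 36 differed between the groups past the threshold, although 31 of them had a lower mean in the flat cells. Without the array of each group where these genes were highest or lowest, that lean shrank for replication and was lost for mitosis. Those arrays were picked by the values of these same genes, so leaving them out was bound to shrink the lean.

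Biotin-labelled cRNA made from total RNA was measured on Affymetrix expression arrays, 1 array for each of 6 samples of Sprague-Dawley rat cells. Of these, 3 were embryonic stem (ES) cells and 3 were cells that the labels call flat pluripotent stem (fPS) cells. The labels give both groups the same culture. It held human LIF at 10 ng/ml, the GSK3 inhibitor CHIR99021 at 3 µM and the MEK inhibitor PD0325901 at 0.5 µM, with maintenance on mitomycin C-treated mouse embryonic fibroblasts in 15% serum. One field of the fPS labels also reads embryonic stem cells, and nothing says whether samples were grown separately. The p-values therefore cover the spread between these arrays alone, and that spread may be technical. In bulk RNA of this kind, fewer dividing cells and less of a transcript in each dividing cell cannot be told apart.

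A cell copies its DNA once in each cycle. The origin recognition complex, with Cdc6 and Cdt1, loads the ring of MCM proteins onto DNA, Cdc45 and the GINS complex turn that ring into an active helicase, and polymerases with the sliding clamp Pcna copy both strands. Mitosis then follows under Cdk1 and its cyclins, with the kinases Aurka, Aurkb and Plk1 building the spindle and the checkpoint proteins Bub1, Bub1b and Ttk delaying the split until every chromosome is attached. Most of these genes are transcribed in waves, the replication genes under E2F factors around the start of S phase and the mitosis genes later under NF-Y and the MuvB complex. Pluripotent stem cells are known for a short G1 phase and so for a large share of cells in S phase.

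The promoters of these genes are shown first, because their shared words are a feature that the choice of members did not use. RefSeq promoter windows of the build GRCr8 were matched by gene identifier for 31 of the 36 members, 14 of replication and 17 of mitosis, and the 250 bases before each gene's start were searched on both strands. Orc1, E2f1, Mcm4, Aurkb and Ccna2 had no entry. The NF-Y word CCAAT stood in 57.1% of the replication and 82.4% of the mitosis windows, against 34% of all 33469 windows and 35.1% of the 11701 windows of genes on the array. The word TTTGAA of the cell cycle homology region (CHR), which the MuvB complex reads, stood in 8 of 17 mitosis windows (47.1%) and in 1 of 14 replication windows (7.14%), that of Mcm2. Its share was 16.2% of all windows and 10.9% of those of array genes. The E2F words TTCCCGC or TTGGCGC had the opposite split, with 7 of 14 replication windows (50%) and 2 of 17 mitosis windows (11.8%), against 5% of all windows and 8.95% of those of array genes. In further genes of both processes, described after the members, the E2F split was much narrower, with 9 of 39 replication windows (23.1%) and 7 of 43 mitosis windows (16.3%), while the CHR word stood in 7.69% and 41.9% and CCAAT in 43.6% and 72.1%. The words can overlap, as an E2F word does with an NF-Y word in Mcm7 and a CHR word with an NF-Y word in Mki67. A match is a description of letters and not a bound site.

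The 6 windows below show how the words are laid out, and were chosen after their values were seen. Mcm6 followed the replication list most closely over the arrays, Mcm7 had the largest difference in it and Rfc4 went against it. Cenpf and Cdk1 had non-overlapping groups, and Mki67 had the smallest difference of the mitosis list. Each is written 5′ to 3′ on the strand of its gene and ends at the base before the gene's start, with all matches in capitals. Mcm6 lies at chr13:42404353-42404602 (minus strand), Mcm7 at chr12:22163179-22163428 (minus strand), Rfc4 at chr11:91254023-91254272 (plus strand), Cenpf at chr13:103760887-103761136 (minus strand), Cdk1 at chr20:19265043-19265292 (plus strand) and Mki67 at chr1:199952594-199952843 (minus strand).
Mcm6: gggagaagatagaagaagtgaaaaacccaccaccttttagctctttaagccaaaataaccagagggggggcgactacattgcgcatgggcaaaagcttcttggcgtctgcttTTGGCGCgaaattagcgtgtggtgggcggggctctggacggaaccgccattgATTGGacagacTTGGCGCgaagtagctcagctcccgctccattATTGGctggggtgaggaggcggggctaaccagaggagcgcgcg
Mcm7: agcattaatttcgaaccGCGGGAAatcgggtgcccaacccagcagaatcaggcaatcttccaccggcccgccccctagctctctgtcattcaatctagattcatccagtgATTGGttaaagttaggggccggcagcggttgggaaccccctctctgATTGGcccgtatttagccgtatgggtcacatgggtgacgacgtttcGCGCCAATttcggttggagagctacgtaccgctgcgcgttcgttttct
Rfc4: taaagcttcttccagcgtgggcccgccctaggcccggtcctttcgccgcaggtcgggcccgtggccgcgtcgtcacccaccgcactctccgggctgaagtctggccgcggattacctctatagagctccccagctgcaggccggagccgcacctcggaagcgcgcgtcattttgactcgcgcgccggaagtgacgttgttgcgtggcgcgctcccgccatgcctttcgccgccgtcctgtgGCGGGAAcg
Cenpf: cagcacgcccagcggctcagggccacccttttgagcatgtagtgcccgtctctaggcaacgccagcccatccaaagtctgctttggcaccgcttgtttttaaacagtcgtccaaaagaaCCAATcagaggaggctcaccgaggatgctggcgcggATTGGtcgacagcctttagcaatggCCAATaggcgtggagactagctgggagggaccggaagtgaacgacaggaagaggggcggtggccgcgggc
Cdk1: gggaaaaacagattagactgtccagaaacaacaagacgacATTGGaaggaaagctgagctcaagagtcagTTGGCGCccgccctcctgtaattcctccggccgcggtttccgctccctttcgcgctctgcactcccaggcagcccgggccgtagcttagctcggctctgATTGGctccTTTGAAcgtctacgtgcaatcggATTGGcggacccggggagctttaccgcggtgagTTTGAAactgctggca
Mki67: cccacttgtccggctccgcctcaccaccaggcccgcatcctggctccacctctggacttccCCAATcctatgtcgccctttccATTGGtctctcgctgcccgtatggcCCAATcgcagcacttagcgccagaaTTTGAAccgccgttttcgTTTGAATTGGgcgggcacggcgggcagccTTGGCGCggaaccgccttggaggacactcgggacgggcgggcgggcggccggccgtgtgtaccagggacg
These windows do not stand for the shares above, since Cdk1 and Mki67 are the 2 mitosis windows with an E2F word. Mcm6 and Mcm7 each hold 2 E2F words beside 2 and 3 NF-Y words and no CHR word. Cdk1 holds 2 CHR words, 3 NF-Y words and 1 E2F word, and Mki67 holds 2, 4 and 1 of these. Cenpf holds 3 NF-Y words alone, and Rfc4 holds 1 E2F word alone. Among the other mitosis members, Aurka, Bub1 and Bub1b held none of the words in this window, as did Fen1, Prim1 and Cdt1 of the replication list.

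**Figure D1:**
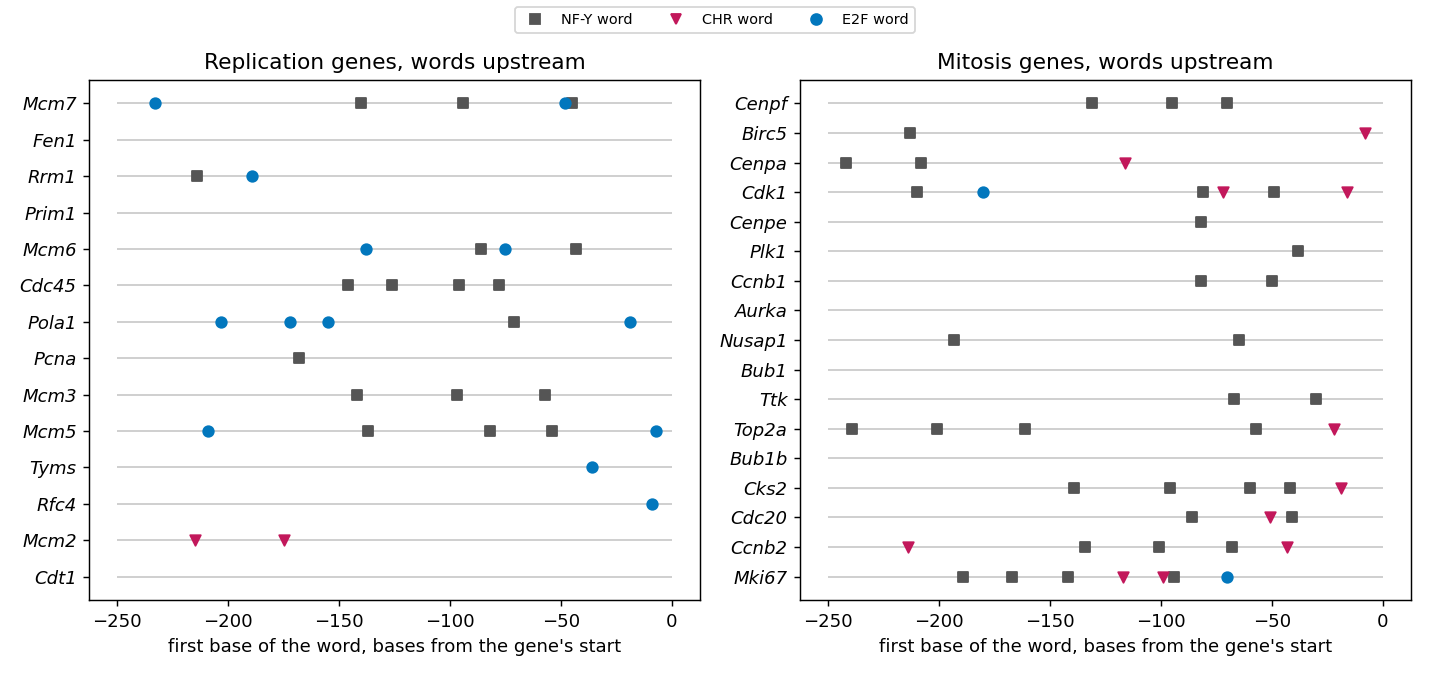
Words found in the 250 bases before the start of 14 replication genes (left) and 17 mitosis genes (right), with the distance of a word's first base from the gene's start in bases on the x axis and each gene on a line of its own, in order of its log2 change. CHR words appear in 8 mitosis genes and 1 replication gene, and E2F words in 7 replication genes and 2 mitosis genes.

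The CHR words of the mitosis genes lay close to the start. Of the 11 such words, 8 began within 100 bases of it, with a median of 51 bases upstream. The 34 NF-Y words of the mitosis genes began at a median of 94.5 bases upstream and the 18 of the replication genes at 95. The 13 E2F words of the replication genes were spread from 233 to 7 bases upstream.

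The arrays compare fPS with ES cells. Values were analysed as log2(intensity + 16), a scale that understates the change of dim probe sets, and groups were compared with limma and Benjamini-Hochberg adjustment over all 31042 probe sets at a threshold of 0.05. By that rule 0.858% of all genes were called in either direction (122 of 14217). A change is given as fPS minus ES, so a negative value means a lower level in fPS cells.

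Replication genes were mostly lower in fPS cells by a small amount, and no single gene passed. Of 17, 0 were called in either direction (lowest adjusted p = 0.225), 13 had a negative and 4 a positive log2 change, and the median change was -0.42, against 0.00 over all genes, of which 50% were negative. At an unadjusted limma p under 0.05, 4 members were lower (23.5%), where 8.88% of all genes were, and 0 were higher, where 8.59% were. The count of lower members was 7 with each array centred on its median, where 11.6% of all genes were lower. Without fPS replicate 2 it was 1, where 5.28% of all genes were lower. It was 0 with a pseudocount of 1 (5.57% of all genes), without ES replicate 3 (6.85%) or without fPS replicate 3 (5.3%). In 8 members, Mcm7, Fen1, Orc1, Rrm1, Prim1, Cdc45, Pola1 and Pcna, all 3 fPS arrays lay below all 3 ES arrays. That is 8 of 17 where 11.3% of all genes were apart in that direction, and 0 members were apart in the other, where 11.3% of all genes were as well.

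Among the genes that load the helicase at origins, the 2 measured members had opposite signs. Orc1, the subunit of the origin recognition complex that is made anew in each cycle, had intensities of 234, 243 and 496 on ES arrays 1 to 3 and 202, 180 and 178 on fPS arrays 1 to 3. Its log2 change was -0.67 (SE 0.297, adjusted p = 0.331), and most of its distance came from ES replicate 3. Cdt1, which brings the MCM ring to the origin, had 790, 917 and 1185 in ES and 1317, 1158 and 978 in fPS cells. Its groups overlapped and its log2 change of 0.26 (95% interval -0.27 to 0.79) was the highest of all 36 members. E2f1, the transcription factor that drives this wave of genes, was dim, with 87.4, 71.9 and 102 in ES and 91.3, 48.4 and 31.5 in fPS cells. The first fPS array of E2f1 lay within the ES range and the other two below it, and its change was -0.57 (SE 0.310).

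The 6 MCM subunits, which form a single ring in equal parts, had changes of different sizes and signs. Mcm7 had 2735, 2309 and 2917 in ES and 2290, 1673 and 847 in fPS cells, and its log2 change was -0.83 (SE 0.346, adjusted p = 0.298), the largest of the list. Its groups did not overlap, but fPS replicate 1 lay just under the lowest ES array. Mcm2, another part of the ring, had 864, 991 and 1337 in ES and 1234, 1514 and 975 in fPS cells, and its log2 change was 0.22 (95% interval -0.36 to 0.80). The groups overlapped widely. Mcm5 had 953, 852 and 1360 in ES and 1115, 1024 and 718 in fPS cells, and its log2 change of -0.14 was among the 3 smallest of the list. Mcm6, Mcm4 and Mcm3 had log2 changes of -0.45, -0.24 and -0.18, and the groups overlapped in each. Whether the changes of Mcm7 and Mcm2 differ from each other was not tested.

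The polymerase and clamp genes held 4 of the 8 members whose groups were apart. Fen1, the nuclease that trims flaps from lagging-strand fragments, had 436, 373 and 629 in ES and 364, 240 and 204 in fPS cells. Its log2 change was -0.80 (SE 0.286, adjusted p = 0.225), and fPS replicate 1 lay just under ES replicate 2. Prim1, the primase subunit that makes the RNA primers, had 2476, 2446 and 3047 in ES and 2089, 1554 and 1697 in fPS cells, and its log2 change was -0.58 (SE 0.216, adjusted p = 0.248). All fPS arrays of Prim1 lay clear of the ES arrays. Pola1, the catalytic subunit of the polymerase that works with it, had a log2 change of -0.42, and the clamp Pcna one of -0.35 with 6302, 5952 and 7605 in ES and 5637, 5495 and 4464 in fPS cells. Rfc4, a subunit of the loader that opens the clamp, stood apart from these with 2129, 2004 and 2025 in ES and 2293, 2047 and 2198 in fPS cells. Its log2 change of 0.08 (95% interval -0.35 to 0.52) had the smallest SE of the list, 0.190.

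Cdc45, which turns the MCM ring into a helicase, had a log2 change of -0.43 and groups that did not overlap. All of its 4 probe sets had a negative change, from -1.17 to -0.08, and the last of these was at intensities from 3.24 to 9.55. Both measured genes of nucleotide supply showed different patterns. Rrm1, the large subunit of ribonucleotide reductase, had 762, 543 and 840 in ES and 427, 504 and 421 in fPS cells, and its log2 change was -0.63 (SE 0.231, adjusted p = 0.240). Its groups did not overlap and its fPS arrays lay close together. Tyms, which makes thymidylate, had 288, 205 and 369 in ES and 436, 348 and 150 in fPS cells. Its fPS arrays held both the highest and the lowest value of the 6, and its log2 change was 0.03 (95% interval -0.85 to 0.90).

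**Figure D2:**
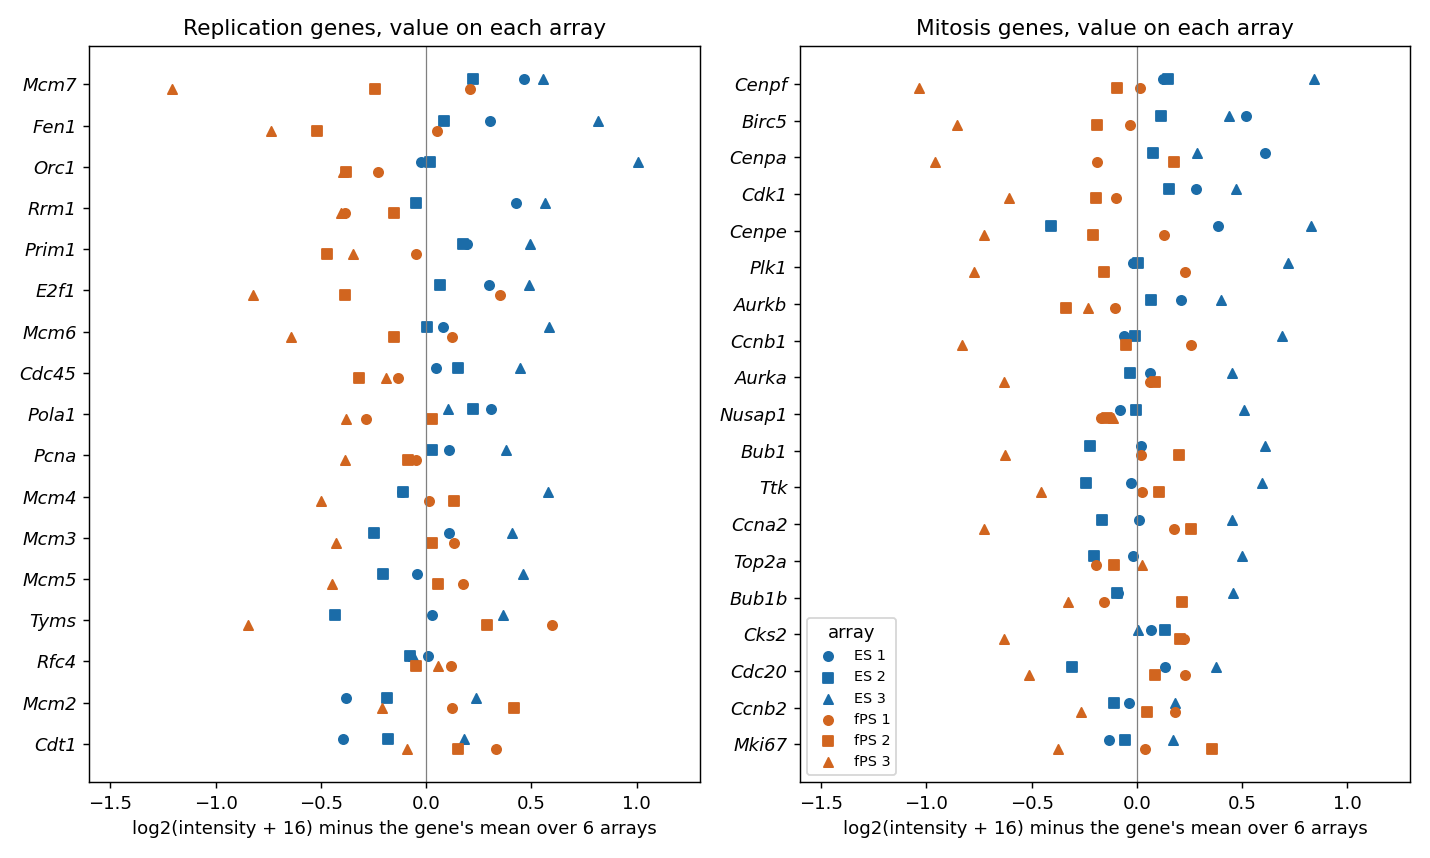
Level of each member on each array as log2(intensity + 16) minus the gene's mean over the 6 arrays, for 17 replication genes (left) and 19 mitosis genes (right), with ES arrays in blue, fPS arrays in orange and a marker for each replicate number. ES replicate 3 (blue triangles) is the highest array in 12 replication and 14 mitosis genes, and fPS replicate 3 (orange triangles) the lowest in 12 and 16.

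Mitosis genes leaned the same way. Of 19, 0 were called by limma (lowest adjusted p = 0.243), 18 had a negative and 1 a positive log2 change, and the median was -0.28. With the mean over all probe sets of a gene it was -0.45, against -0.42 for replication, so the order of the lists depends on the probe set rule, and their difference was not tested. At an unadjusted p under 0.05, 2 were lower (10.5%, against 8.88% of all genes) and 0 higher. The lower count was 4 with the mean over probe sets (8.28% of all genes) and 5 with centred arrays (11.6%). It was 0 with a pseudocount of 1, where 5.57% of all genes were lower. The count was also 0 without ES replicate 1 (6.46% of all genes), ES replicate 3 (6.85%) or fPS replicate 3 (5.3%). In 5 members, Cenpf, Birc5, Cdk1, Aurkb and Nusap1, all fPS arrays lay below all ES arrays, against 11.3% of all genes.

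The 4 genes grouped here under the centromere and the chromosomal passenger complex had log2 changes from -0.74 to -0.54. Cenpf, Birc5 and Cenpa had the largest differences of the mitosis list, followed by Cdk1 at -0.60. Aurkb, also of the passenger complex, is given below with the kinases. Cenpf, a large protein of the outer kinetochore, had 815, 827 and 1350 in ES and 754, 696 and 356 in fPS cells, and its log2 change was -0.74 (SE 0.333, adjusted p = 0.334). Birc5, the passenger protein survivin, had 1557, 1172 and 1469 in ES and 1056, 947 and 591 in fPS cells, and its change was -0.72 (SE 0.266, adjusted p = 0.244). In both genes fPS replicate 3 lay far under the other arrays. Cenpa, the histone variant that marks the centromere, had 180, 120 and 141 in ES and 97.1, 129 and 50.1 in fPS cells. Cenpe, a motor that carries chromosomes to the spindle's middle, had 193, 105 and 268 in ES and 159, 122 and 80.9 in fPS cells. In Cenpa and Cenpe the groups overlapped, and their changes were -0.65 and -0.54.

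Cdk1, the kinase that drives entry into mitosis, was lower on every fPS array, while its cyclins overlapped. Cdk1 had 2153, 1968 and 2460 in ES and 1649, 1547 and 1157 in fPS cells, and its log2 change was -0.60 (SE 0.223, adjusted p = 0.243). Cyclin Ccnb2 had 1560, 1484 and 1813 in ES and 1815, 1654 and 1330 in fPS cells. Its groups overlapped, with a log2 change of -0.02 (95% interval -0.51 to 0.46). Ccnb1, Ccna2 and Cks2, a small subunit bound to Cdk1, had changes of -0.42, -0.20 and -0.14, each with overlap. The other probe set of Ccnb1 gave -1.09 with groups that did not overlap (adjusted p = 0.169), so the size of that gene's difference depends on the probe set.

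The mitotic kinases had log2 changes from -0.47 to -0.22. Plk1, which acts on centrosomes and kinetochores, had 391, 399 and 664 in ES and 467, 354 and 225 in fPS cells, and fPS replicate 1 lay above ES replicates 1 and 2. Aurkb, the kinase of the passenger complex, had 733, 661 and 838 in ES and 585, 496 and 534 in fPS cells. It was the 1 kinase of the 4 with groups that did not overlap, at a change of -0.45 (SE 0.203, adjusted p = 0.335). Cdc20, which activates the anaphase-promoting complex, had 1235, 905 and 1465 in ES and 1322, 1198 and 784 in fPS cells. Its change was -0.13, and its 5 probe sets ran from -0.32 to 0.20. The checkpoint genes Bub1 and Bub1b had -0.27 and -0.18, and the kinases Aurka and Ttk -0.32 and -0.22, all with overlap.

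Mki67, the proliferation marker, was the mitosis gene with the smallest difference. Its intensities were 739, 777 and 913 in ES and 833, 1040 and 621 in fPS cells, with a log2 change of 0.01 (95% interval -0.54 to 0.56). Both the highest and the lowest array were fPS arrays. Top2a, the topoisomerase that untangles sister chromosomes, had -0.18, and Nusap1, a spindle protein, -0.28 with 3 fPS arrays within 828 to 862. Over both lists, 5 mitosis genes and 1 replication gene had several probe sets, and the signs differed within 1 of these, Cdc20. The sizes differed in others. The second probe set gave -0.64 in Nusap1, with groups that did not overlap, -0.35 in Top2a and -0.79 in Ttk, where it was dimmer.

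**Figure D3:**
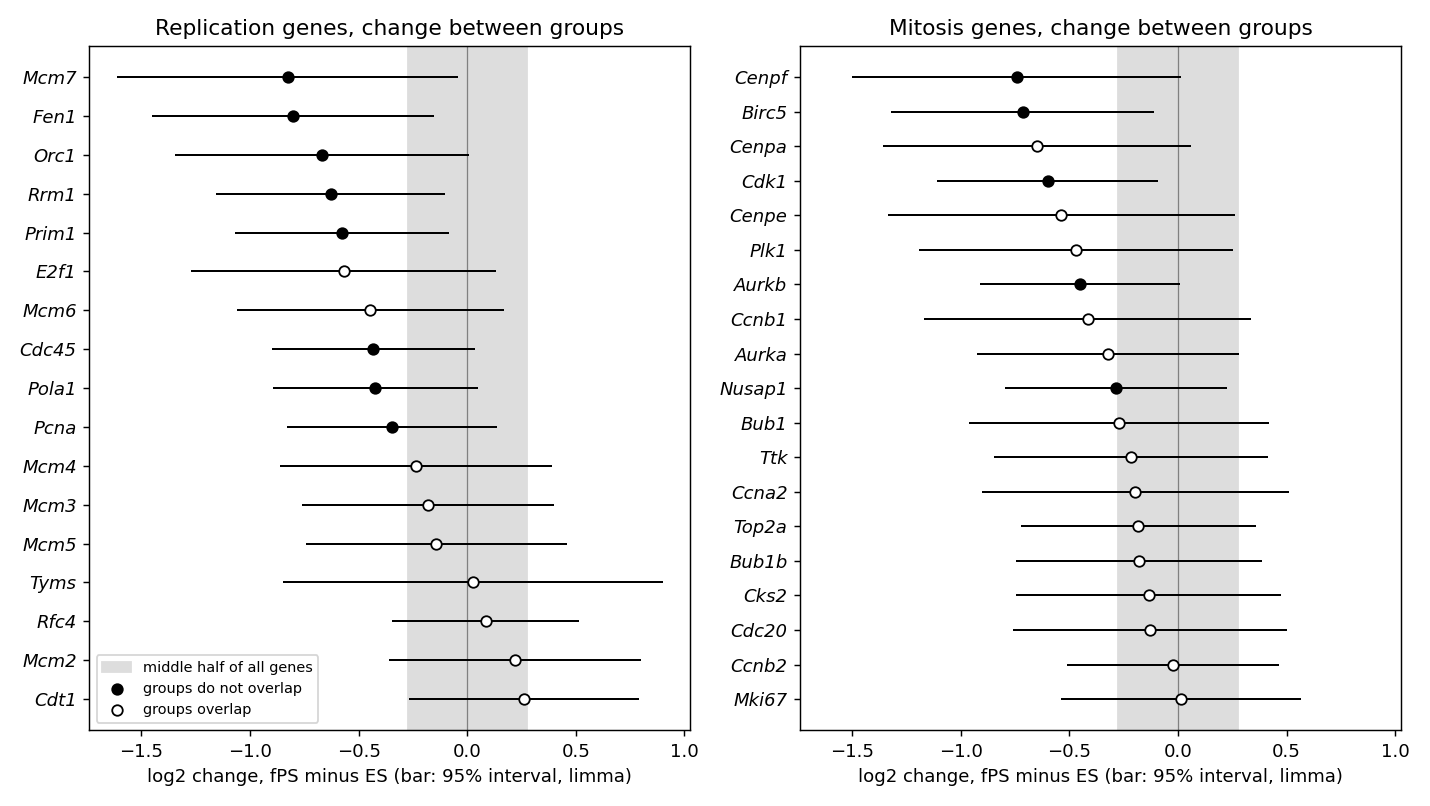
Log2 change of each member, fPS minus ES, with its 95% interval from limma, for replication genes (left) and mitosis genes (right). Filled points mark the 8 and 5 genes whose groups do not overlap, the grey band is the range between the quartiles of all 14217 genes, and intervals clear of 0 belong to 4 replication and 2 mitosis genes.

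The members varied together from array to array. Over the 6 arrays the mean pairwise Pearson r was 0.483 within the replication list, 0.701 within the mitosis list and 0.594 between them, against 0.0425 over all pairs of genes. With each group's mean removed, the values were 0.545, 0.691, 0.618 and 0.0626. These are descriptions over 6 arrays, and members measured on 1 array share its RNA and labelling. The mean of the other members of its list was followed most closely by Mcm6 (r = 0.996) and Pcna (r = 0.973) among replication genes and by Aurka (r = 0.988) and Cenpf (r = 0.971) among mitosis genes. Cdt1, Mcm2 and Rfc4 followed it least, with r of 0.208, 0.266 and -0.356.

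The largest departures lay on 2 arrays. The median deviation of the replication genes from their own means was 0.079, 0.0060 and 0.461 on ES arrays 1 to 3 and 0.117, -0.086 and -0.403 on fPS arrays 1 to 3, on the log2 scale. For the mitosis genes it was 0.018, -0.031 and 0.457 in ES and 0.024, 0.048 and -0.627 in fPS cells. ES replicate 3 thus stood above and fPS replicate 3 below the other 4 arrays in both lists. ES replicate 3 held the highest value of 12 replication and 14 mitosis members, and of 28.1% of all genes. The lowest value was on fPS replicate 3 for 12 and 16 members, and for 29.5% of all genes. The median deviation of all genes stayed between -0.109, on fPS replicate 3, and 0.103, on fPS replicate 1.

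**Figure D4:**
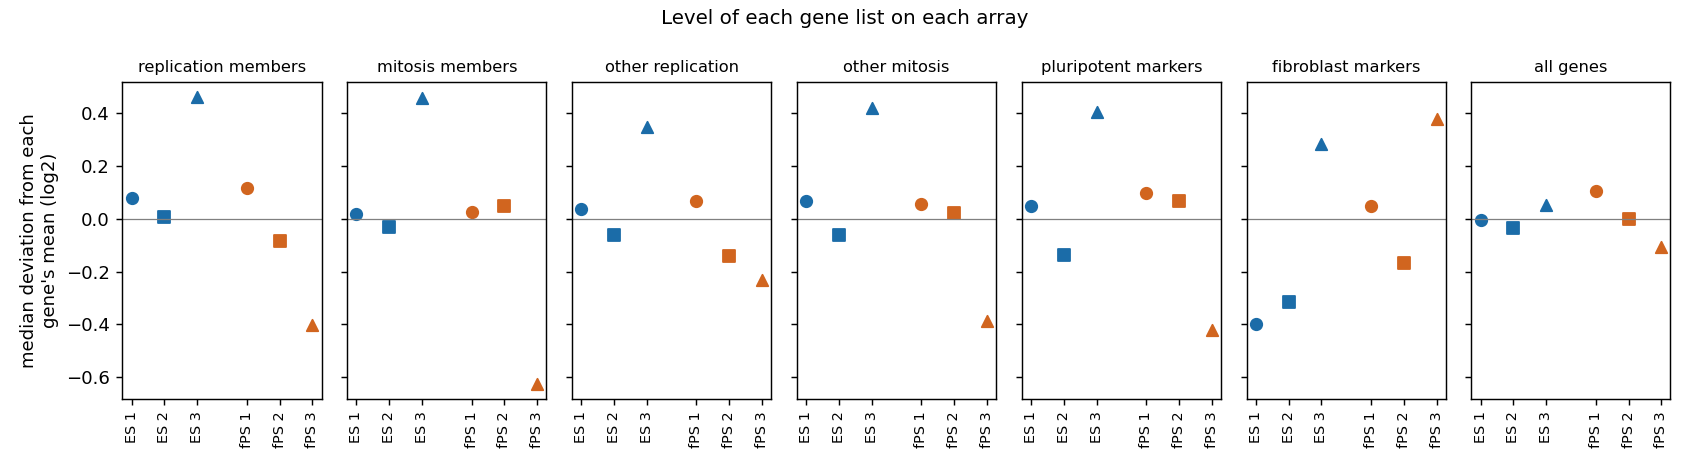
Median deviation of each gene list from its genes' means on each of the 6 arrays, in log2 units, for the replication and mitosis members, the other genes of both processes, markers of pluripotent cells and fibroblasts, and all genes. The 4 cell division lists and the pluripotent markers are highest on ES replicate 3 and lowest on fPS replicate 3, while fibroblast markers are highest on both of these arrays.

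Those 2 arrays were picked as the ones where these genes were highest and lowest, so leaving them out was bound to shrink the difference. Without them, leaving 2 arrays in each group, the mitosis genes no longer leaned. Their median change was 0.06, against 0.07 for all genes, with 8 negative and 11 positive. The replication genes kept a smaller lean, with a median of -0.14, 10 negative and 7 positive. No member then had an unadjusted limma p under 0.05 in the lower direction, where 5.28% of all genes did, and no member was called. The most negative of the remaining changes were those of Rrm1 and Prim1, at -0.46 and -0.45, while Ccna2, Mcm5 and Bub1 turned to 0.30, 0.24 and 0.21. Tyms, Mcm2 and Cdt1, at 0.65, 0.56 and 0.53, were then the largest in size. Without ES replicate 3 alone the medians were -0.27 for replication and -0.17 for mitosis, against 0.01 for all genes. Without fPS replicate 3 alone they were -0.24 and -0.10, against 0.05 for all genes.

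**Figure D5:**
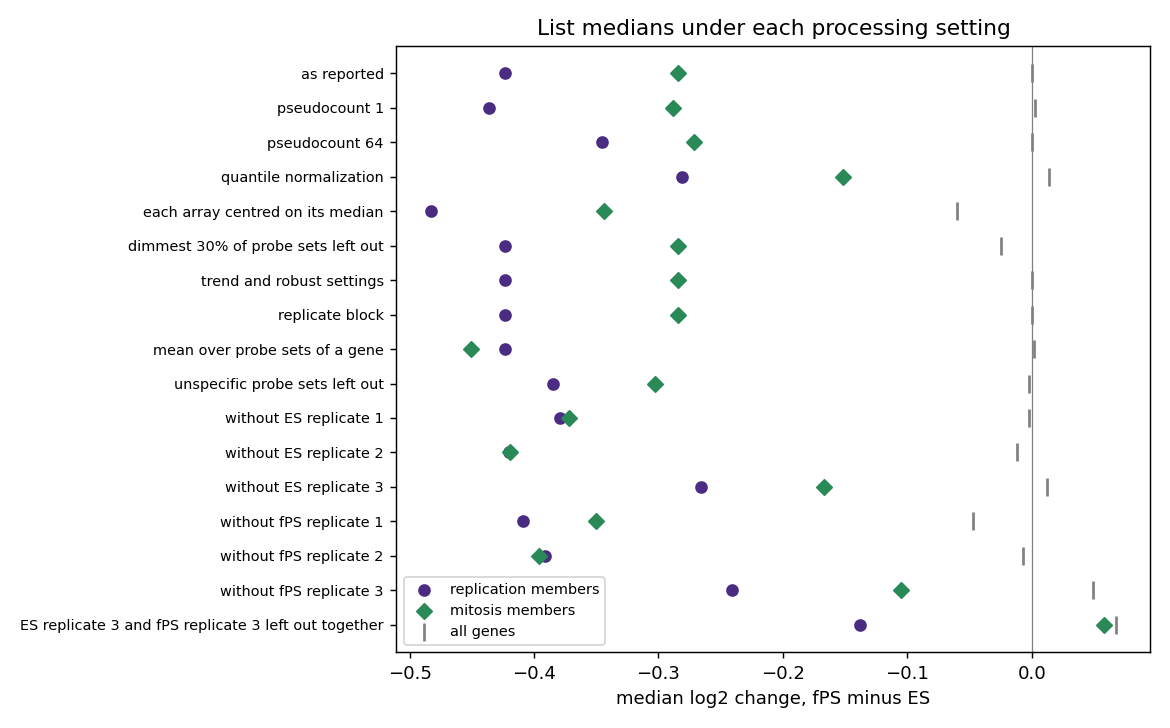
Median log2 change, fPS minus ES, of the replication members, the mitosis members and all genes under each processing setting. The medians of both lists lie below that of all genes in every setting, with a difference of -0.206 for replication and -0.00945 for mitosis when ES replicate 3 and fPS replicate 3 are left out together.

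Further genes of both processes, listed from textbook function but with earlier results of these data known, leaned the same way. Of 51 other replication genes 45 were measured, and limma called 0. At an unadjusted p under 0.05, 9 were lower (20.0%, against 8.88% of all genes) and 0 higher (against 8.59%). Their median change was -0.23 and 36 were negative. The largest differences were those of Gins1 at -1.22 (SE 0.357, adjusted p = 0.156), of Rfc5, a subunit of the clamp loader, at -1.08 (SE 0.231, adjusted p = 0.0751), and of E2f2, another E2F factor, at -1.07. Gins1, Gins3 and Gins4, the measured parts of the complex that activates the helicase, all had groups that did not overlap, with -1.22, -0.62 and -0.83. They were singled out after their values were seen. In the whole list 9 of 45 genes were apart in the lower direction and 1 in the higher, against 11.3% of all genes in each. Rfc5 had 1567, 2327 and 2426 in ES and 983, 1003 and 925 in fPS cells, against a log2 change of 0.08 in Rfc4 of the same loader, a difference that was not tested. Rfc5 was called without the dimmest 30% of probe sets and under limma's trend and robust options (adjusted p = 0.0407 and 0.0327), and its adjusted p reached 0.264 in the others.

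Of 60 other mitosis genes 52 were measured, and limma called 0. At an unadjusted p under 0.05, 7 were lower (13.5%, against 8.88% of all genes) and 1 higher (1.92%, against 8.59%). The median was -0.20 and 39 were negative. Spc25, a subunit of the kinetochore's microtubule-binding complex, had 2042, 1438 and 2128 in ES and 1188, 636 and 430 in fPS cells. Its log2 change was -1.40 (SE 0.359, adjusted p = 0.113), and it was called in the same 2 settings as Rfc5 (adjusted p = 0.0454 and 0.0452, and up to 0.355 in the others). Troap, a spindle protein, had -1.17, and Cenpk, of the inner kinetochore, had -0.83. The 1 gene that was higher at an unadjusted p under 0.05 was Sgo1, which protects centromeric cohesion, with 734, 752 and 929 in ES and 1017, 1587 and 1431 in fPS cells. Without ES replicate 3 and fPS replicate 3 the medians were -0.04 for the other replication genes and 0.05 for the other mitosis genes, against 0.07 for all genes.

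Among brakes of the cell cycle 1 gene rose. Of 26 symbols listed 23 were measured, 1 was called higher and 0 lower, and the median change was 0.06. At an unadjusted p under 0.05, 3 of the 23 were higher, against 8.59% of all genes, and 2 lower, against 8.88%. Btg1, an antiproliferative protein, had 1042, 1147 and 1812 in ES and 3512, 3975 and 3482 in fPS cells, and its log2 change was 1.48 (SE 0.252, adjusted p = 0.0449). All fPS arrays lay far above the ES arrays. The call was lost when any 1 array was left out (adjusted p from 0.0727 to 0.218), while the change stayed between 1.33 and 1.76 in all 16 alternatives. The Cdk inhibitor Cdkn1a, a target of p53, had 229, 338 and 309 in ES and 382, 553 and 873 in fPS cells, and its change was 0.95 (SE 0.314, adjusted p = 0.196). Wee1, the kinase that holds Cdk1 inactive, had 428, 251 and 823 in ES and 278, 131 and 130 in fPS cells. Its groups overlapped, with a change of -1.33 (SE 0.437, adjusted p = 0.194). Lin54, the subunit of the MuvB complex that binds the CHR word, was also looked at after its values were seen. Mitosis genes are transcribed under that complex, so this list does not hold brakes alone. Lin54 had 177, 165 and 242 in ES and 86.8 to 103 in fPS cells, and its change was -0.89 (SE 0.220, adjusted p = 0.101). Lin54 and Wee1 were the 2 genes of the list that were lower at an unadjusted p under 0.05.

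Markers of cell identity moved between these arrays too. Of 24 pluripotency markers 15 were measured, Pou5f1 and Nanog not among them. Their intensities summed to 21870 to 31680 on ES and 19320 to 26170 on fPS arrays. Their median deviation was highest on ES replicate 3 (0.402) and lowest on fPS replicate 3 (-0.423), the same arrays as for the cell division genes. The 27 fibroblast markers, the type of the feeder cells, were highest on both of those arrays (0.282 and 0.375), with 18 of 27 higher in fPS cells. They summed to 2891 to 4843 in ES and 3952 to 5293 in fPS cells. Timp1 weighed heavily in these sums, with 2106, 1722 and 590 in ES and 2080, 2358 and 1404 in fPS cells. Fibrillar and type VI collagens had mean log2 values of 5.64, 6.34 and 7.7 in ES and 6.62, 6.35 and 7.4 in fPS cells. No fibroblast marker was listed at 0, and the lowest was Postn at 1.06 on ES replicate 1. Of 21 endoderm markers 16 were higher in fPS cells, against 50% of all genes, and 11 of them had an unadjusted p under 0.05, against 8.59% of all genes higher at that p, with sums of 7097 to 9190 in ES and 9350 to 10920 in fPS cells. Neural markers summed to 732.1 to 877.7 in ES and 274.7 to 608.7 in fPS cells, of which Tubb3 gave 540.3 to 703.2 and 167.0 to 434.5. Of the 9 measured, 6 were lower and 3 higher in fPS cells, Pax6 among the latter with a log2 change of 0.51. Trophoblast markers summed to 4154 to 5225 in ES and 3769 to 5702 in fPS cells. Of the 11 measured, 6 were lower in fPS cells, with Tfap2a of these called, and 5 were higher. The part of these markers in the differences of the cell division genes was not tested. Median intensity per array lay between 36.2 and 45.3. The 3′ over 5′ signal of β-actin, a sign of RNA quality, ran from 2.06 on ES replicate 3 to 4.37 on fPS replicate 2. That of GAPDH stayed between 0.956, on fPS replicate 2, and 1.01.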

How the data were processed

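The data are 1 deposited table of intensities per probe set for 6 arrays, 3 per group. The intensity values are used as the authors deposited them, with their probe summary, background correction and scaling not given in the sources used here. That they are on a linear scale was inferred from their range. In all, the table held 31099 probe sets, of which 57 controls were left out, and 0 columns of samples were unused. Symbols came from the platform's annotation: 20826 probe sets had 1 symbol, 436 several and 9780 none. Probe sets with several were given no name.

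Intensities were analysed as log2(intensity + 16) with limma 3.58.1 in R 4.3.3 (lmFit, eBayes), two-sided, with Benjamini-Hochberg adjustment over 31042 probe sets, and with no further normalization. The highest correlation between 2 arrays was 0.9716, so none was a copy of another. The number of arrays limits the precision. Gene lists are described by counts and medians without a set test. The members and lists were chosen with earlier results of these data known. Values on every array are given for the 6 members of each list with the largest and the 3 with the smallest change, and for some others, among them Mcm2, Cdt1, Pcna and Aurkb, chosen after their values were seen. Of the other lists, genes past the threshold and the 3 with the largest change are named, and Gins3, Gins4, Sgo1, Lin54 and Cdkn1c beside them. Promoter words were searched in RefSeq windows of GRCr8, and Python 3.11.15 with matplotlib 3.10.9 made the figures. The alternatives were other pseudocounts, normalizations, filters, eBayes settings and probe set rules, the replicate number as a block, and arrays left out.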

Additional observations from a re-analysis of the deposited data

How the results depend on the processing

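No replication or mitosis member was called in any of the 16 alternatives that gave it a value, which were 15 for Mcm6 and Ccna2, since these have no probe set once unspecific ones are left out. Of the 36 members, 17 were negative and 3 positive (Cdt1, Mcm2 and Rfc4) in each alternative that gave a value, and 16 had both signs. Without ES replicate 3 and fPS replicate 3 together, the median log2 change was -0.138 for replication and 0.0585 for mitosis, against 0.068 for all genes. It was -0.0423 for other replication and 0.0486 for other mitosis genes. In that setting 0 probe sets, 0 genes and 0 brakes were called. With 1 array left out in turn, the medians ran from -0.42 to -0.241 for replication and from -0.419 to -0.105 for mitosis. They ran from -0.335 to -0.144 for other replication, -0.295 to -0.0781 for other mitosis genes and -0.103 to 0.141 for brakes. The median of all genes ran from -0.047, without fPS replicate 1, to 0.049, without fPS replicate 3. Called probe sets then ran from 0 to 162, called genes from 0 to 93 and called brakes from 0 to 0. Leaving out ES replicate 1 or fPS replicate 2 left 0 called genes, ES replicate 3 left 1, fPS replicate 3 left 3, ES replicate 2 left 19 and fPS replicate 1 left 93. The cause was not tested.

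The count over all genes, 215 probe sets and 122 genes, was 0 and 0 with a pseudocount of 1, and 41 and 26 with 64. It was 337 probe sets after quantile normalization, 376 and 203 genes with each array centred on its median, 759 and 416 without the dimmest 30% of probe sets and 619 and 358 with the trend and robust settings. Genes called higher were 81 of 122, and 96 of 203 with centred arrays. Leaving out the dimmest 30%, or the trend and robust settings, called 1 other replication gene (Rfc5) and 1 other mitosis gene (Spc25). Pseudocounts of 1 and 64 called 0 brakes. With a pseudocount of 1, limma still gave 1831 genes at an unadjusted p under 0.05. Quantile normalization narrowed the lean of the lists. The median change was then -0.281 for replication (13 negative, 4 positive) and -0.152 for mitosis (15 negative, 4 positive). For the other replication and other mitosis genes it was -0.124 and -0.0706, against 0.014 for all genes. With each array centred on its median, replication had -0.483 and mitosis -0.344, against -0.06 for all genes.

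The replicate numbers paired the arrays weakly at most. Deviations of same-numbered arrays from their group means correlated at 0.176, -0.00606 and 0.0664. ES replicates 1 and 3 correlated best with the fPS array of their own number, and ES replicate 2 with fPS replicate 3 (0.0876). With the replicate block 107 probe sets, 64 genes and 0 brakes were called, and the medians of both member lists stayed at -0.423 and -0.284.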
